A study of Rattus norvegicus with 9 samples.

Results

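Mitochondrial ribosomal proteins were compared between livers of rats given follicle-stimulating hormone (FSH) and livers of rats given vehicle. The genes were taken by symbol, as every row of the count table whose name begins with Mrpl or Mrps followed by a digit. They numbered 75 of 24496 genes, with 45 named for the large subunit (Mrpl) and 30 for the small subunit (Mrps). Liver messenger RNA came from 9 individual female Wistar rats, each sequenced as 1 library. Western diet began at an age of 10 weeks in every rat and ran for 6 weeks before the ovaries were removed. All 9 rats then received degarelix, an antagonist of gonadotropin-releasing hormone, and an osmotic pump, which delivered FSH to 4 rats (a daily dose of 6 µg per kg) and vehicle to 5 rats. Both groups thus lacked ovaries and carried degarelix, and no group without either is compared here. Intake of the diet was limited for 12 days, then unlimited for 7 days, and tissue was taken at an age of 19 weeks, 4 h into a fast.

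The mitochondrial ribosome translates the few proteins that mitochondrial DNA encodes, which are core subunits of the respiratory chain and of ATP synthase. Its RNAs are made inside the organelle, whereas its proteins are encoded in the nucleus, translated in the cytosol and imported, so the organelle's translation depends on both genomes. Many of these proteins descend from bacterial ribosomal proteins and others are specific to mitochondria. In hepatocytes, which are rich in mitochondria, their output supports fatty acid oxidation, ureagenesis and gluconeogenesis. Symbols do not always give the place: Mrps18a and Mrps30 sit in the large subunit in structures of the mammalian particle, and Mrps36 is a component of the 2-oxoglutarate dehydrogenase complex rather than of the ribosome.

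Promoters are shown because the proteins of this particle are encoded by separate nuclear genes. Whether the promoters bear on the values below was not tested. RefSeq promoter windows (build GRCr8, 250 bases before to 50 after the annotated start) were matched to 59 of the 75 genes. The stretches below cover the 120 bases before the start of the 5 genes whose FSH and vehicle values did not overlap (Mrpl32, Mrpl33, Mrpl55, Mrps6 and Mrps27) and of Mrps9, which had the highest fold change. Capitals mark matches, on either strand, to the letters searched for ETS factors such as GABP (CCGGAAG), NRF1 (its palindromic consensus), YY1 (AAGATGGC), SP1 (GGGCGGG) or a TATA box (TATAAA).
Mrpl32, chr17:55260531-55260650, plus strand: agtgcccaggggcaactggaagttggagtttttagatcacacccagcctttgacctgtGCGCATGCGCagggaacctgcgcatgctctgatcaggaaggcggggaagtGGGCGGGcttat
Mrpl33, chr6:30553988-30554107, minus strand: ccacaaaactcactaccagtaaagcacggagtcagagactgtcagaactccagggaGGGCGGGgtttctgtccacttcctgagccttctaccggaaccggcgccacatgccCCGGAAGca
Mrpl55, chr10:44488133-44488252, plus strand: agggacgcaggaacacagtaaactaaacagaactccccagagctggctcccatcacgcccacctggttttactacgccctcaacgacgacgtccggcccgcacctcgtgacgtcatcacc
Mrps27, chr2:32474084-32474203, plus strand: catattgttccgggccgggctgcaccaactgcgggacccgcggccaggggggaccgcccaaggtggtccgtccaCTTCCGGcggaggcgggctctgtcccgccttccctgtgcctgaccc
Mrps6, chr11:44778547-44778666, plus strand: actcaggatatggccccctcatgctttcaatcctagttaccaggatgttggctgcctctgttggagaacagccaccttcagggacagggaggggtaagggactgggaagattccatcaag
Mrps9, chr9:52605558-52605677, plus strand: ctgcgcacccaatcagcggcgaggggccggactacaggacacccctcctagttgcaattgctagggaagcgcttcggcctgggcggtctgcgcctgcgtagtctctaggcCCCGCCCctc
In these stretches Mrpl32 holds an NRF1 and an SP1 match, Mrpl33 an ETS and an SP1 match, Mrps27 an ETS match on the opposite strand and Mrps9 an SP1 match on the opposite strand. The stretches of Mrpl55 and Mrps6 hold none of the letters searched. The whole windows of Mrpl32, Mrps27 and Mrps6 also hold YY1 letters, which are not within the stretches shown.

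Library totals lay between 19295580 and 28672439 counts. The 75 genes together took 0.156 to 0.187% of the counts in the vehicle libraries and 0.142 to 0.169% in the FSH libraries. Of these genes 72 had enough counts for the test. Mrpl36 and Mrpl53 were listed at 0 in every library, and Mrps21l, a row named as similar to Mrps21, had 1 read in all. A listed 0 cannot be read as lack of expression here, since 8868 genes are at 0 in every library, among them all 13 protein genes of the mitochondrial DNA. The messengers that this ribosome translates therefore could not be followed, and its protein products were not measured. The tested genes had between 86 and 1858 counts in a library, and their mean levels over all libraries spanned 4.43 to 63.2 CPM (counts scaled to a common library size of 1000000). At the mean count the median counting error of a tested member was 4.44%, against a median coefficient of variation between animals of 6.99% in the vehicle group and 7.28% in the FSH group. Over all tested genes the corresponding medians between animals were 13.6% and 12.3%. Counting error was not computed for all genes, so these medians do not show that members vary less beyond counting.

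No mitochondrial ribosomal protein gene passed the test (0 of 72 at an adjusted p under 0.05, where 0.0335% of 11924 tested genes passed, 0.00839% lower and 0.0252% higher), and the smallest adjusted p was 0.317, for Mrps27. Most values nevertheless lay slightly below vehicle. The log2 fold change, FSH over vehicle, was below 0 in 65 of 72 members, against 49.5% of all tested genes, with a median of −0.09, or −5.89%, against a median of 0.002 for all genes. At an unadjusted p under 0.05 there were 13 members lower and 1 higher, where 5.14% of all genes were lower and 6.42% higher at that level. In 5 members every FSH value lay below every vehicle value and in 0 members above, where 1.92% and 2.19% of all genes did so. DESeq2 called 0 members where 1.13% of its genes passed. At an unadjusted p under 0.05 it had 10 members lower (13.9%, against 4.34% of its genes) and 1 higher. The members were measured in the same animals, so their counts do not add up as independent evidence.

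**Figure D1:**
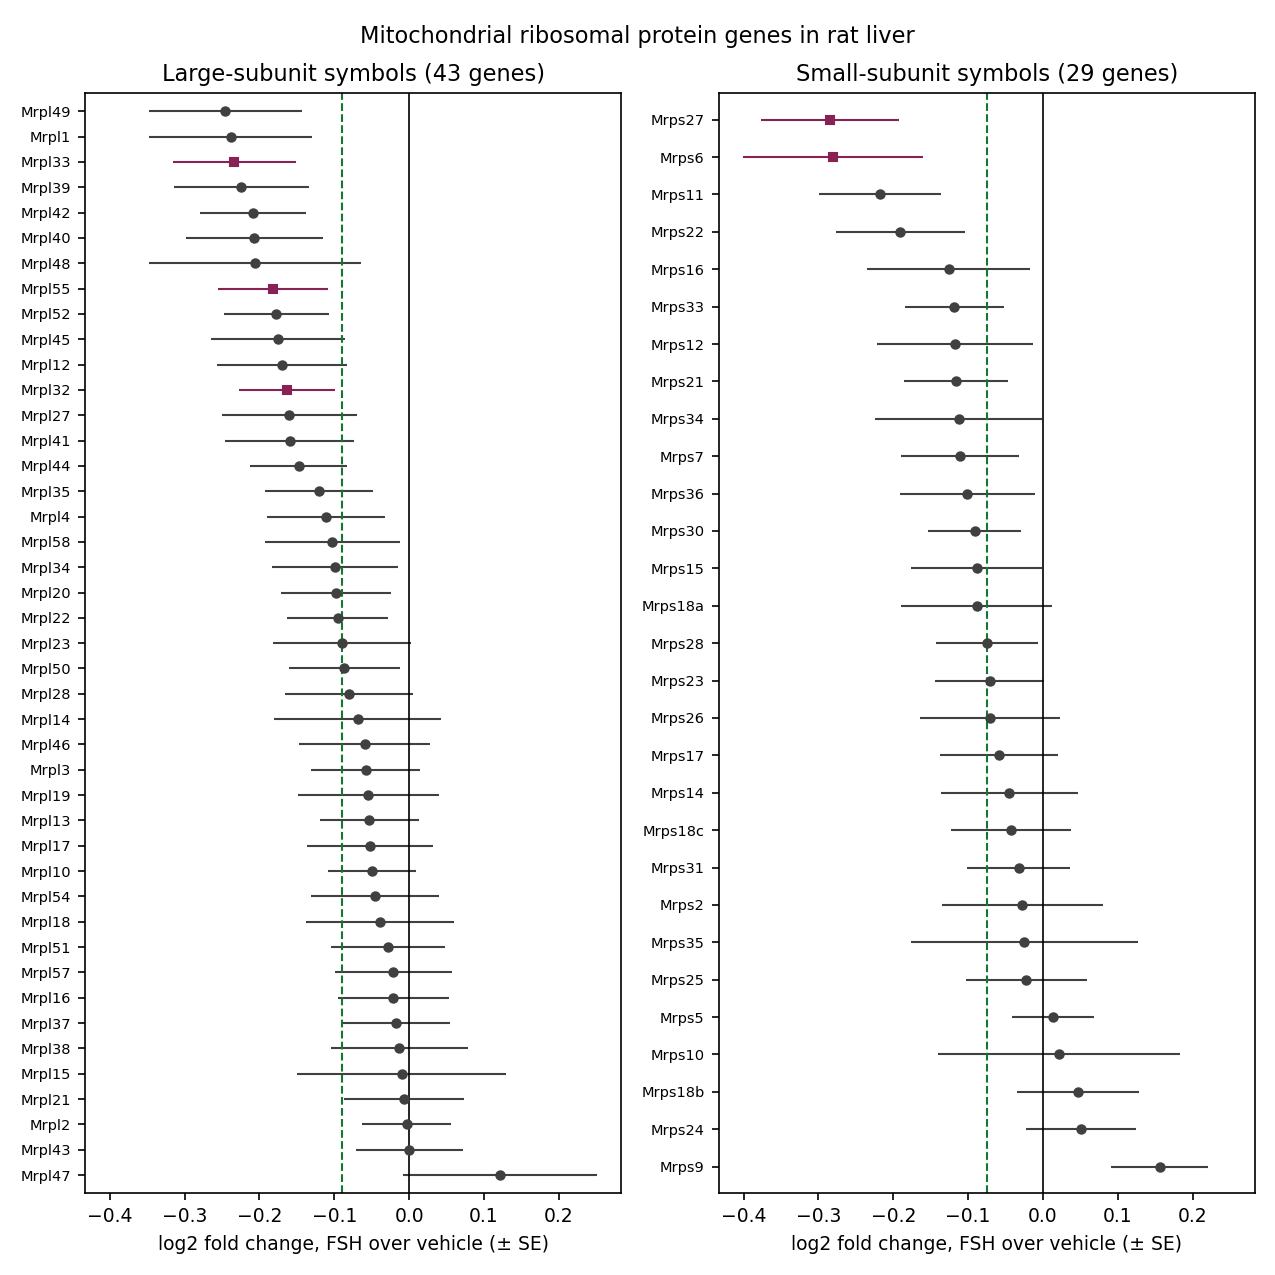
Log2 fold change of FSH over vehicle for the 72 tested genes, as points with SE, by subunit of the symbol; squares mark the 5 genes whose FSH and vehicle values do not overlap and dashed lines the subunit medians of −0.09 (large) and −0.075 (small). Most points lie left of 0, and Mrps9 and Mrpl47 lie farthest to the right.

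Fold changes below 0 prevailed in both subunits. Among large-subunit symbols 41 of 43 were lower, with a median of −0.09, a range of −0.246 to 0.121, 9 members at an unadjusted p under 0.05 and all 9 lower. Among small-subunit symbols 24 of 29 were lower, with a median of −0.075, a range of −0.285 to 0.156, and 4 lower and 1 higher at an unadjusted p under 0.05. The medians of the fold changes differed by −0.015 on the log2 scale. Taken animal by animal, the median deviation of the large subunit minus that of the small was 0.008 ± 0.024 (SD, n = 5, −0.027 to 0.031) with vehicle and −0.029 ± 0.013 (n = 4, −0.043 to −0.012) with FSH, a gap of −0.037 with ranges that overlap. Whether the subunits differ in their response was not tested. With the subunit taken from the structure, so that Mrps18a and Mrps30 count as large and Mrps36 as neither, the medians were −0.09 for 45 large-subunit genes and −0.071 for 26 small-subunit genes. Genes with bacterial homologues and genes specific to mitochondria gave medians of −0.075 (36 of 41 lower) and −0.09 (28 of 30 lower). The medians of these groups lay close together.

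**Figure D2:**
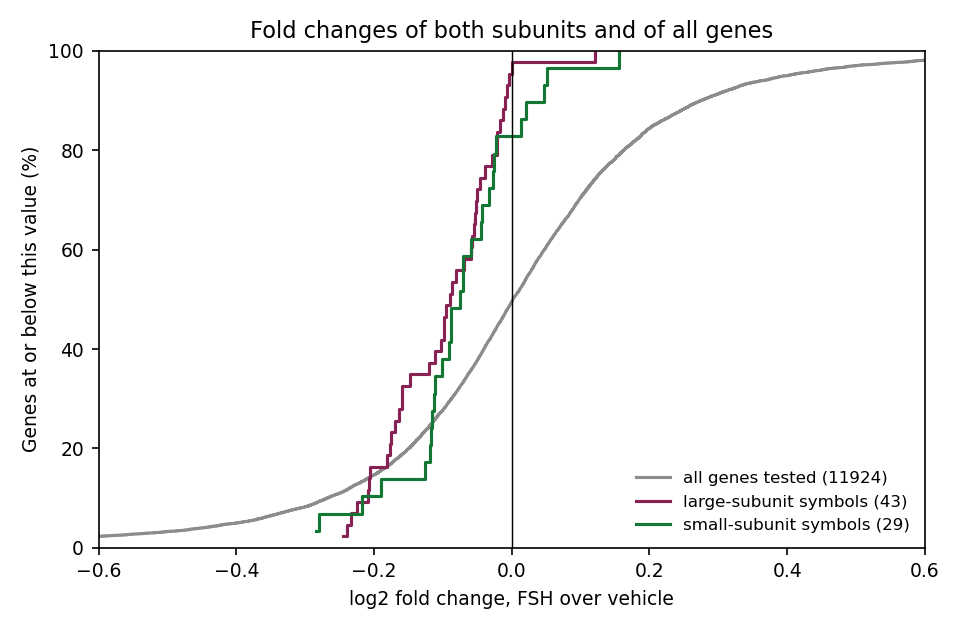
Cumulative share of genes, in percent, by log2 fold change of FSH over vehicle, for large-subunit symbols, small-subunit symbols and all 11924 tested genes, with the tails of all genes beyond the axis. Both subunit curves cross 0 far above the curve of all genes, at 95.3% and 82.8% against 49.5%, and span a narrower range.

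The shift differed from animal to animal, and the groups overlapped. Summed over the large-subunit genes, vehicle replicates 1 to 5 stood at 1083, 1081, 1061, 1039 and 996.8 CPM. FSH replicates 1 to 4 stood at 935.1, 1001, 959.9 and 1063 CPM. FSH replicates 1 and 3 lay below every vehicle library, while FSH replicates 2 and 4 lay within the vehicle range. The means were 1052 ± 35.7 CPM (SD, n = 5) with vehicle and 989.8 ± 55.9 CPM (n = 4) with FSH. Summed over the small-subunit genes, the vehicle libraries stood at 658.9, 676.2, 653.9, 631.3 and 608.2 CPM and the FSH libraries at 587.3, 630.5, 602.5 and 653.4 CPM. The order of the FSH animals was the same as for the large subunit, and the means were 645.7 ± 26.4 and 618.4 ± 29.4 CPM. In vehicle replicate 5 the sums of both subunits were the lowest of the vehicle group, below those of FSH replicates 2 and 4.

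Counted gene by gene against the vehicle mean, 40 of 43 large-subunit genes were lower in FSH replicate 1, 35 in replicate 2, 38 in replicate 3 and 24 in replicate 4. The corresponding counts for 29 small-subunit genes were 25, 20, 24 and 15. FSH replicate 4 was thus close to the vehicle mean in both subunits, with median deviations of −0.033 (large) and −0.001 (small) on the log2 scale. Without FSH replicate 1 there were 55 of 72 members lower, and medians of −0.06 and −0.054. At an unadjusted p under 0.05 that fit had 3 members lower and 1 higher, so that 4.17% of members were lower, against 4.15% of all genes, and the excess of the full set of animals was gone. Alb, the albumin gene, took 19.4% of the counts of that library and 10.5 to 16.7% in the others, and its part in the result was not tested. Without FSH replicate 4 the medians were −0.141 and −0.093. The ratio of the large to the small sum, which depends on the lengths of the transcripts and is compared only between animals, was 1.64, 1.6, 1.62, 1.65 and 1.64 in vehicle replicates 1 to 5. It was 1.59, 1.59, 1.59 and 1.63 in FSH replicates 1 to 4. In 3 of the 4 FSH libraries the ratio was slightly below the vehicle range, and in FSH replicate 4 it lay within it.

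**Figure D3:**
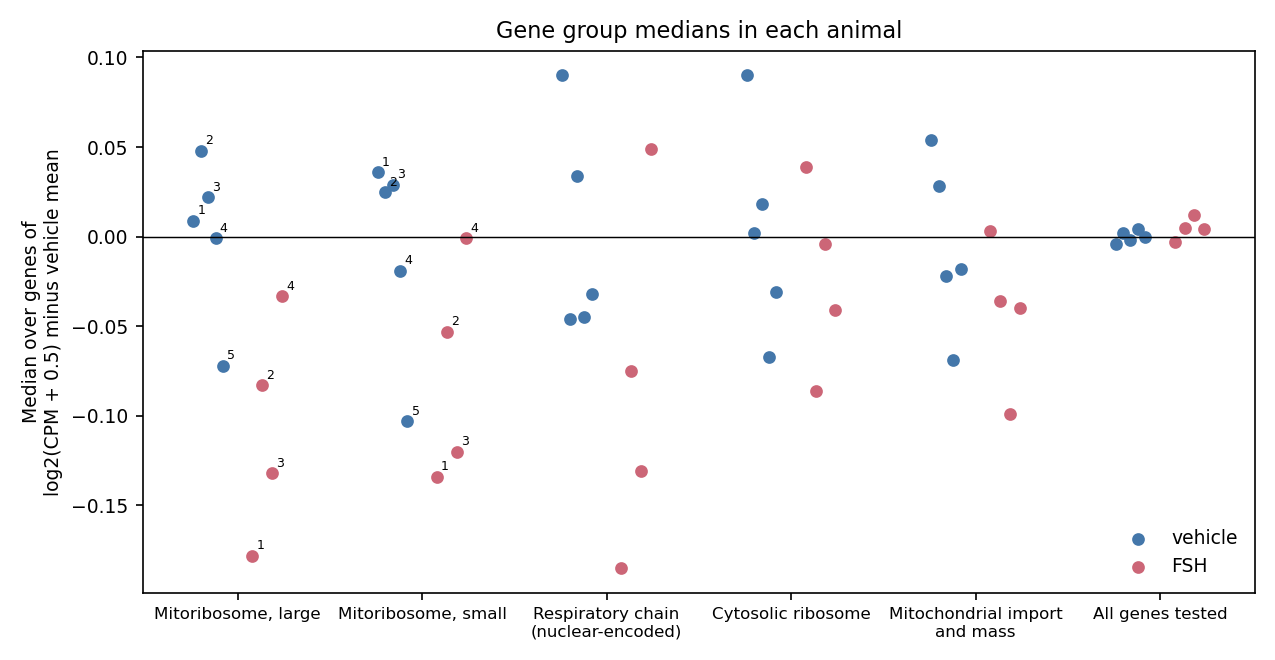
Median over genes of log2(CPM + 0.5) minus the vehicle mean, 1 point per animal (vehicle 5 rats, FSH 4 rats), for 6 gene groups; digits beside points of the mitochondrial ribosome give the replicate. FSH replicate 1 is lowest in both subunits at −0.178 and −0.134, FSH replicate 4 lies near the vehicle animals, and the median of all genes stays within 0.012 of 0.

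Mrps27, a small-subunit protein of the pentatricopeptide repeat family, which binds RNA, had the smallest p. It stood at 15.8, 15.4, 20.4, 17.6 and 18.7 CPM in vehicle replicates 1 to 5 and at 14, 14.2, 14.6 and 14.9 CPM in FSH replicates 1 to 4. Every FSH value was below every vehicle value, by a narrow margin, and the FSH animals were closer to each other than the vehicle animals were. The log2 fold change was −0.28 (SE 0.09, unadjusted p = 0.011, edgeR's adjusted p = 0.317), with −0.33 to −0.22 when single animals were left out. Mrps6, which pairs with the S18 protein on the platform of the small subunit, stood at 5.71, 6.81, 6.93, 5.29 and 5.26 CPM with vehicle and at 4.57, 5.03, 4.98 and 5.23 CPM with FSH. Its groups were separated by 0.03 CPM, less than 1 read in any library (1 read is worth 0.0353 to 0.0532 CPM), so counting error alone could close that gap. The fold change of Mrps6 was −0.28 (SE 0.12, edgeR's adjusted p = 0.408).

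The other 3 genes whose groups did not overlap belong to the large subunit and have bacterial homologues. Mrpl33, a small protein of the L33 family, stood at 10.7, 10.9, 11.3, 12.0 and 10.6 CPM with vehicle and at 8.58, 9.42, 9.45 and 10.4 CPM with FSH (log2 fold change −0.23, SE 0.08, edgeR's adjusted p = 0.344). Mrpl32, a zinc-binding protein whose maturation by the m-AAA protease is a step of ribosome assembly, stood at 17.3, 17.4, 16.6, 18.0 and 17.6 CPM with vehicle. With FSH it stood at 15.1, 16.5, 15.0 and 15.5 CPM (−0.16, SE 0.06, edgeR's adjusted p = 0.382). Only FSH replicate 2 came near the vehicle range of Mrpl32. Mrpl55, the counterpart of bacterial L31 in the central protuberance, stood at 14.3, 14.5, 15.8, 15.2 and 13.9 CPM with vehicle and at 11.9, 13.4, 13.1 and 13.6 CPM with FSH (−0.18, SE 0.07, edgeR's adjusted p = 0.391). In Mrpl33 and Mrpl55, as in Mrps27 and Mrps6, FSH replicate 1 was the lowest of all animals and FSH replicate 4 the highest of its group.

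Mrps9, the head protein whose bacterial counterpart reaches the peptidyl-tRNA site, was the 1 member higher at an unadjusted p under 0.05. Its vehicle values were 31.8, 34.2, 33.6, 33.3 and 34.5 CPM and its FSH values 34.4, 36.1, 39.4 and 39.4 CPM. The groups touched at FSH replicate 1 and vehicle replicate 5, and the other 3 FSH values were above the vehicle range. The log2 fold change was 0.16 (SE 0.07, edgeR's adjusted p = 0.399), and lay between 0.12 and 0.19 when single animals were left out. The unadjusted p was 0.0364, and under 0.05 in 7 of 18 alternatives, reaching 0.137 with total counts alone and 0.119 without FSH replicate 3.

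**Figure D4:**
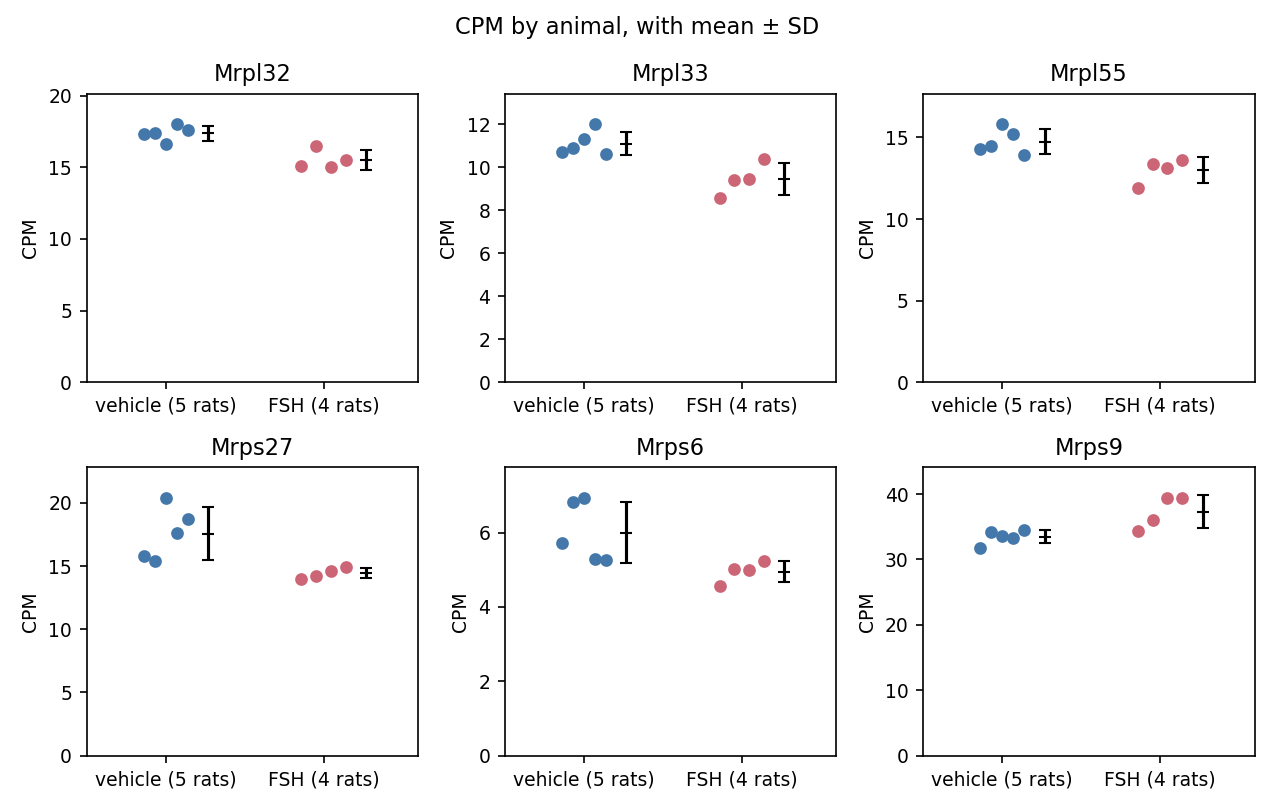
CPM in each animal for the 5 genes without overlap and for Mrps9, with mean ± SD beside the points (vehicle 5 rats, FSH 4 rats); each axis starts at 0. The FSH points lie just below the vehicle points in the first 5 panels, while Mrps9 reaches 39.4 CPM against a vehicle maximum of 34.5 CPM.

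A further 4 large-subunit genes were among the smallest p-values, all lower and with overlap between groups. Mrpl42 stood at 20.7 ± 1.06 CPM (SD, n = 5) with vehicle and 17.9 ± 1.07 CPM (n = 4) with FSH, a log2 fold change of −0.21 (SE 0.07). Mrpl52 stood at 53.4 ± 2.83 and 47.2 ± 3.24 CPM, with −0.18 (SE 0.07). Mrpl39, at 11.1 ± 0.775 and 9.51 ± 0.849 CPM, had −0.22 (SE 0.09), and Mrpl49, at 7.22 ± 0.686 and 6.09 ± 0.446 CPM, had −0.25 (SE 0.10), the lowest of the large subunit. These 4 proteins are specific to mitochondria. Their edgeR's adjusted p-values lay between 0.328 and 0.399. Loci named as similar to Mrpl41, Mrpl42 and Mrps36 are listed by RefSeq, and Mrps21l stands in the count table, so the counts of Mrpl41, Mrpl42, Mrps36 and Mrps21 are uncertain where reads were shared.

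Grouped by place in the particle, in groups chosen after the values were seen, the 3 stalk proteins were lower with a median of −0.17. Among them Mrpl12, which recruits translation factors and also binds the mitochondrial RNA polymerase, stood at 40.6, 49.8, 41.5, 42.3 and 39.8 CPM with vehicle and at 35.2, 38.9, 42.3 and 35.8 CPM with FSH. The log2 fold change of Mrpl12 was −0.17 (SE 0.09, edgeR's adjusted p = 0.493), and −0.11 without vehicle replicate 2, the animal at 49.8 CPM. Mrpl1, which forms the mobile stalk next to the exit site, had −0.24 (SE 0.11) and Mrpl10, the base of the Mrpl12 stalk, −0.05 (SE 0.06). The central protuberance, which contacts transfer RNAs and bridges to the small subunit, had 7 of 7 genes lower with a median of −0.10. Around the exit of the nascent chain 4 of 5 genes were lower with a median of −0.09. There Mrpl45, which holds the ribosome at the inner membrane, stood at 18.3 ± 1.82 CPM with vehicle and 16.2 ± 1.09 CPM with FSH (−0.18, SE 0.09), and Mrpl47, the counterpart of bacterial L29, was the exception with 0.12 (SE 0.13). At 0.05 without vehicle replicate 4 and 0.19 without FSH replicate 2, Mrpl47 also depended on single animals. Mrpl43 and Mrpl2, next in order, were at 0 change within error, with −0.003 (SE 0.06) for Mrpl2, a core protein of the peptidyl transferase region. For Mrpl43 the sign of the fold change depended on the scaling.

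In the small subunit the 4 platform genes listed were all lower, with a median of −0.17. The head genes listed were divided, with 2 of 4 lower and a median of −0.01. These lists cover only part of the 26 small-subunit genes, and a difference between places was not tested. On the platform Mrps11 had −0.22 (SE 0.08, edgeR's adjusted p = 0.363) and Mrps21 −0.12 (SE 0.07). Among decoding and messenger entry proteins 1 of 3 was lower. There Mrps24, the counterpart of bacterial S3, stood at 20.9 ± 0.858 CPM with vehicle and 21.6 ± 1.73 CPM with FSH, a log2 fold change of 0.05 (SE 0.07). Mrps18b had 0.05 (SE 0.08). Mrps22 and Mrps33, both specific to mitochondria, had −0.19 (SE 0.09) and −0.12 (SE 0.07). The symbols that sit elsewhere did not differ in kind: Mrps18a had −0.09 (SE 0.10), Mrps30 −0.09 (SE 0.06) and Mrps36 −0.10 (SE 0.09). The most variable members were Mrps10 among vehicle animals, with a coefficient of variation of 22%, and Mrpl15 among FSH animals, with 21.1%, at 52.4, 66.4, 52.8 and 80.3 CPM. The head gene Mrps10 stood at 7.07 to 12.7 CPM with vehicle. For Mrpl15 a log2 fold change of −0.01 (SE 0.14) thus covers a wide spread. The most even were Mrpl10 with vehicle (1.26%) and Mrps5 with FSH (1.07%).

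Mrpl46 and Mrps11, a large and a small subunit gene, are head-to-head neighbours whose RefSeq starts lie 234 bases apart. The stretch between them is shown because both genes share it, read on the strand of Mrps11.
Mrpl46 to Mrps11, chr1:142117031-142117263, plus strand: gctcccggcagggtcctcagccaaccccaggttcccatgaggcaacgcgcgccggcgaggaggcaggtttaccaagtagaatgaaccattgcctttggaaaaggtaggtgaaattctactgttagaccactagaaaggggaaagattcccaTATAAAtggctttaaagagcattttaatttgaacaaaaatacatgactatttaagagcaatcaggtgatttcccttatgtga
The capitals mark a TATA match, and no other motif searched was found there. The whole window of Mrpl46 also holds YY1 letters. Mrpl46 stood at 15.1, 16.6, 15.1, 14 and 14.3 CPM with vehicle and at 13.6, 16.6, 14 and 13.5 CPM with FSH, so that the groups overlapped (log2 fold change −0.06, SE 0.09). Mrps11 stood at 23.2, 21.8, 21.2, 21.3 and 19.5 CPM and at 16.8, 19.4, 17.2 and 20.2 CPM, with 3 of 4 FSH values below the vehicle range. The difference between these fold changes was not tested.

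In all, 17 of the 59 genes with a window (28.8%) had a head-to-head neighbour starting within 1000 bases, against 16.6% of 8978 tested genes. The 59 include the untested Mrpl36 and Mrpl53. In the 13 pairs with both genes tested, 7 neighbour values were below 0 and 6 above, with a median of −0.05 against −0.04 for the members in those pairs; the pair of Mrpl46 and Mrps11 enters from both sides. Among the neighbours, Ndufb5, a complex I subunit beside Mrpl47, had −0.05 (SE 0.07) and Psma2, a proteasome subunit beside Mrpl32, had −0.08 (SE 0.07). Ptcd2, a mitochondrial RNA-binding protein beside Mrps27, had 0.04 (SE 0.18). At an unadjusted p under 0.05 there were 4 neighbours in these 13 pairs, where 11.6% of all genes were under that level. The first, Mrps11, is itself a member and already counted above. The others were Ncapd2, a condensin subunit beside Mrpl51 (−0.53, SE 0.16), Pnpla7, a lysophospholipase beside Mrpl41 (0.39, SE 0.13), and Gga3, a clathrin adaptor beside Mrps7 (0.31, SE 0.11). None of the neighbours passed over all genes.

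Motif matches were counted over the whole 300-base window, both strands. ETS letters were found in 20 of 59 members (33.9%) and in 17.7% of tested genes with a window, and YY1 letters in 15 members (25.4%) and 5.8% of tested genes. The 59 members include Mrpl36 and Mrpl53, which were not tested. Both hold ETS letters, and Mrpl36 also holds YY1 and SP1 letters. Of the 57 tested members with a window, 18 held ETS letters and 14 held YY1 letters. The YY1 matches lay wholly after the start in 11 members, and in 0 members did a YY1 match overlap an ETS match. NRF1 letters were found in 4 members (6.8%) against 2.0%, SP1 letters in 19 members (32.2%) against 46.7%, and TATA letters in 8 members (13.6%) against 7.4%. Over all 33469 windows of the table the shares were 8.7% (ETS), 3.2% (YY1), 0.9% (NRF1), 22.7% (SP1) and 14.2% (TATA). The strict consensus of the DR1 element, read by nuclear receptors such as PPARα, was in 0 members and in 18 of all windows. A match is a string of letters, not a bound site. Members with and without ETS letters had nearly the same median log2 fold change, −0.094 (18 tested) and −0.089 (39 tested). For YY1 letters these medians were −0.101 (14 tested) and −0.089 (43 tested), and for SP1 letters −0.056 (18 tested) and −0.098 (39 tested).

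**Figure D5:**
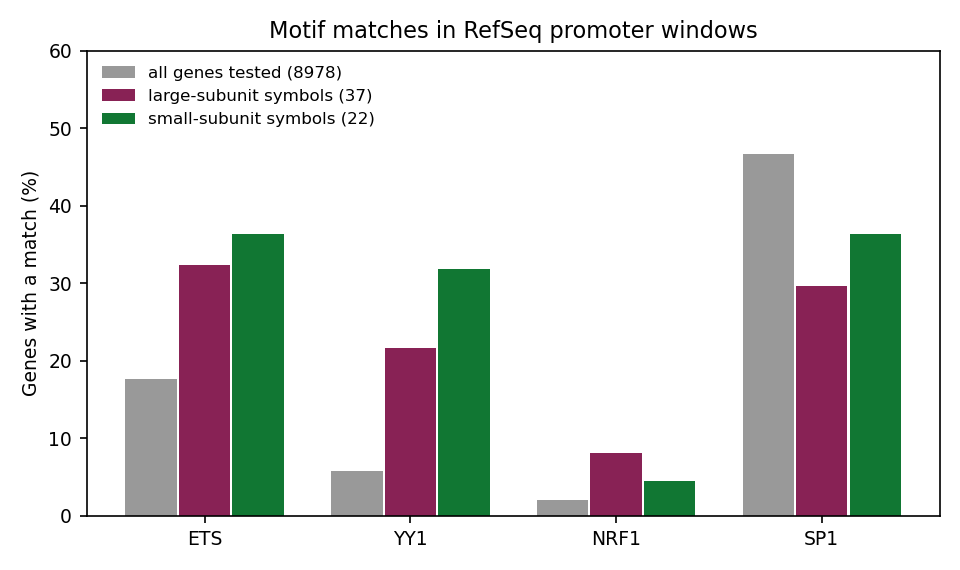
Share of genes, in percent, whose RefSeq promoter window holds the letters searched for each of 4 factors, for all tested genes with a window (8978) and for large-subunit (37) and small-subunit (22) symbols. The large-subunit symbols include the untested Mrpl36 and Mrpl53. ETS bars reach 32.4% and 36.4% and YY1 bars 21.6% and 31.8% in the large and small subunit, against 17.7% and 5.8% of tested genes.

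Genes that build and serve the particle were counted in the same way. Of 4 further ribosomal proteins without an Mrp symbol, 3 were lower with a median of −0.05. The smallest p in that group was that of Gadd45gip1, a large-subunit protein, with −0.17 (SE 0.08), followed by Chchd1 with −0.09 (SE 0.09). Of 25 assembly and ribosomal RNA modification factors 15 were lower (median −0.02), and 4 were lower at an unadjusted p under 0.05 (16%, against 5.14% of all genes). Among these Rbfa, a maturation factor of the small subunit, stood at 23.5 ± 2.12 CPM with vehicle and 19.5 ± 1.97 CPM with FSH (log2 fold change −0.27, SE 0.09, edgeR's adjusted p = 0.35), and Ybey, an endoribonuclease, had −0.28 (SE 0.11). Translation factors were divided, with 9 of 15 lower and a median of −0.001, and none had an unadjusted p under 0.05. Metap1d, a methionine aminopeptidase, had 0.24 (SE 0.13) and the elongation factor Gfm1 −0.12 (SE 0.08). Aminoacyl-tRNA synthetases and the genes of glutaminyl-tRNA formation had 14 of 19 lower with a median of −0.05, with Gatc at −0.19 (SE 0.07) and Wars2 at −0.21 (SE 0.10).

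Genes for upkeep, transcription and RNA processing of the mitochondrial genome were divided, with 7 of 18 lower, a median of 0.05, and 1 lower and 1 higher at an unadjusted p under 0.05 (11.1%, against 11.6% of all genes). Slirp, which stabilises mitochondrial messengers together with Lrpprc, had the smallest p. It stood at 12.4 ± 0.787 CPM with vehicle and 9.67 ± 0.881 CPM with FSH, a log2 fold change of −0.36 (SE 0.09, edgeR's adjusted p = 0.204). Polrmt, the mitochondrial RNA polymerase, stood at 28.1 ± 2.61 and 32.1 ± 2.31 CPM, with 0.20 (SE 0.09, edgeR's adjusted p = 0.418). Among 9 regulators of mitochondrial biogenesis, which include Ppargc1a, Nrf1, Gabpa, Esrra and Yy1, all 9 had fold changes above 0 (median 0.17) and none passed. Myc had 1.01 (SE 0.37, edgeR's adjusted p = 0.353) and Pprc1, a coactivator related to PGC-1, 0.44 (SE 0.23). Over all tested genes 49.5% had fold changes below 0. Of the regulators only Myc had an unadjusted edgeR p under 0.05 (11.1% of the list, against 11.6% of all genes), with overlap between groups. The ribosomal proteins and these regulators thus had median fold changes of opposite sign, but no median of the regulators was taken animal by animal.

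Nuclear-encoded respiratory chain subunits had 70 of 73 lower and a median of −0.10, close to those of the ribosomal proteins. At an unadjusted p under 0.05 there were 5, or 6.85%, against 19.4% of the ribosomal proteins and 11.6% of all genes in either direction. Counting lower genes alone, the shares were 6.85%, 18.1% and 5.14%. In 1 of 73 every FSH value lay below every vehicle value, where this held for 1.92% of all genes. The difference between the lists was not tested. All 5 were lower, among them Cox8a at −0.21 (SE 0.08) and Ndufa8 at −0.24 (SE 0.10). Their medians by animal were −0.185, −0.075, −0.131 and 0.049 in FSH replicates 1 to 4, with replicate 1 lowest and replicate 4 highest, as in both ribosomal subunits. Mitochondrial import and mass markers had 12 of 19 lower and a median of −0.06, with Tomm6, a small subunit of the outer membrane translocase, at −0.30 (SE 0.09, edgeR's adjusted p = 0.298) and Tomm22 at −0.12 (SE 0.06). Their summed level ran from 1100 to 1210 CPM in both groups. Cytosolic ribosomal proteins had 45 of 68 lower and a median of −0.02, with Rps4x at −0.35 (SE 0.11) and Rpl17 at −0.28 (SE 0.11), whose counts are uncertain because of near-identical copies.

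In whole liver, fewer cells of a type and less RNA per cell cannot be told apart. Hepatocyte markers, the defining genes of the labelled tissue, were abundant, with summed levels of 197000 to 241000 CPM with vehicle and 170000 to 279000 CPM with FSH, and 7 of 10 were lower (median −0.08; Asgr1 0.26, SE 0.10, and Hnf4a 0.24, SE 0.13). Endothelial markers had 7 of 9 higher (summed 242 to 311 CPM with vehicle and 278 to 350 CPM with FSH; Clec4g 0.61, SE 0.13, and Stab1 0.43, SE 0.11). Stellate and fibroblast markers had 8 of 9 lower (summed 225 to 290 and 177 to 211 CPM; Col3a1 −0.45, SE 0.11, and Col1a1 −0.92, SE 0.37). No marker counted in either of these lists was at 0. Pecam1 (endothelial) and Col1a2 (stellate), also chosen as markers, were not among the genes counted. The part of cell composition in the values of the ribosomal proteins was not tested. Erythroid genes had 4 of 4 higher (summed 75.9 to 157 and 121 to 490 CPM; Hbb 1.54, SE 0.35, and Hba-a2 0.80, SE 0.38). Of the other lists, 5 of 7 cholangiocyte markers (summed 36.9 to 50 and 32.9 to 41.6 CPM; Cftr −0.74, SE 0.34, and Krt7 −0.76, SE 0.41) and 5 of 8 Kupffer cell markers (Timd4 0.80, SE 0.62, and Cd68 −0.28, SE 0.26) were lower. Lymphocyte markers were divided, with 3 of 6 lower (Nkg7 −0.33, SE 0.27), and both tested neutrophil markers were higher (S100a9 0.56, SE 0.45, and Fcnb 0.27, SE 0.37). No gene of these lists passed over all genes.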

How the data were processed

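Liver RNA of 9 rats was measured as strand-specific paired-end libraries, per the labels' protocols. The authors deposited whole-number read counts per gene, not normalised. STAR, DESeq2, edgeR and build rn6 stand in the submitters' processing notes without roles or versions. The counter, annotation and strand setting of the deposited counts: not given in the sources used here. The members and gene lists were chosen with earlier results of these data known.

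The 9 libraries (4 FSH, 5 vehicle) were fitted with edgeR 4.0.16 under R 4.3.3: TMM scaling, a group-wise filter on low counts and the quasi-likelihood F-test, 2-sided. Its p-values were adjusted after Benjamini and Hochberg across 11924 genes, to which 99.96% of all counts belong. Fold changes are FSH over vehicle, with an SE obtained by dividing the fold change by the root of F. CPM values carry the TMM scaling. A member is called without overlap where its FSH values all lie outside the vehicle range. No library repeated another: chi-square per degree of freedom was at least 25.9 for any pair within a group. The steps were tested on simulated counts with planted fold changes larger than that of any member, so detection of shifts as small as the members' was not tested.

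Named members were those past the threshold, the 7 smallest p-values and the 3 highest and 3 lowest fold changes of each subunit, and Mrps18a, Mrps30, Mrps36, Mrpl12 and Mrpl45; from each related list the 2 smallest p-values, of which 1 gene is not reported here. Places in the particle, the neighbours and other members named were chosen after their values were seen. Promoter windows are RefSeq's, build GRCr8, which is not the build of the files, so no coordinates of the counted genes are given. The alternatives tried comprise limma-voom (limma 3.58.1), DESeq2 1.42.0, a block on the replicate number, other scalings and filters, 1 surrogate variable (sva 3.50.0), an FDR of 0.10 and leaving out each animal. Scaling on totals without the 50 most abundant genes was added after seeing the data.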

Additional observations from a re-analysis of the deposited data

Results flagged for a closer look

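The gap between the most extreme animal and its nearest neighbour was set against the range of its group in 60 sets of values (the named members, and sums, medians and the ratio of the subunits). Of these, 3 stood apart, where chance gives about 3. Mrps36 in FSH replicate 1 was the highest of its group at 12.9 CPM, with the next animal at 11.8 CPM. Mrpl12 in vehicle replicate 2 was the highest at 49.8 CPM, with the next at 42.3 CPM. The ratio of the large to the small subunit sum was highest among FSH animals in replicate 4, at 1.63, with the next at 1.59.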

How the results depend on the processing

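The count of members past the threshold was 0 in every alternative run, including an FDR of 0.10. The count at an unadjusted p under 0.05, 14 in the report (19.4%, against 11.6% of all genes), was 6 with the replicate block (8.33% against 9.79%) and 7 with total counts alone (9.72% against 9.8%), and lay between 4 (without FSH replicate 1, 5.56% against 9.49%) and 15 (without vehicle replicate 5, 20.8% against 10.8%) when single animals were left out. It was 8 without vehicle replicate 1 or 4 (11.1% against 9.36% and 10.7%), 7 without vehicle replicate 3 (9.72% against 12.2%) and 6 without FSH replicate 3 (8.33% against 9.15%). These shares count both directions. For lower genes alone they were 8.33% against 4.27% with the replicate block and 9.72% against 5.08% with total counts alone. Without vehicle replicates 1, 3 and 4 they were 11.1% against 4.22%, 9.72% against 5.45% and 11.1% against 4.93%. Without FSH replicate 3 they were 8.33% against 4.12%, and without FSH replicate 1 they were 4.17% against 4.15%. Both subunit medians were below 0 in every alternative: leaving out single animals gave −0.141 to −0.06 for the large and −0.093 to −0.054 for the small subunit, and their difference ran from −0.048 (without FSH replicate 4) to −0.006 (without FSH replicate 1). The count of members without overlap, 5 in the report (6.94%, against 4.11% of all genes), ran from 6 to 13, while the share of all genes ran from 5.42 to 8.39%, since leaving out an animal cannot create an overlap. It was 11 without vehicle replicate 5 (15.3% against 6.07%), 10 without FSH replicate 2 (13.9% against 6.82%) and 13 without FSH replicate 4 (18.1% against 8.39%). The count over all genes, 4 in the report, was 177 with DESeq2 (110 higher, 67 lower) and 0 to 4 without single animals, with 0 without vehicle replicate 1 or 4 or FSH replicate 1 or 3. Mrpl43 changed sign, at −0.03 with the replicate block, −0.01 with DESeq2, −0.0048 with its size factors, −0.02 with total counts, −0.0017 without a filter, −0.01 with the stricter filter, with 1 surrogate variable and with the added scaling, and −0.04 to 0.02 without single animals; Mrpl2 ran from −0.03 to 0.02. The cause was not tested. Replicate numbers did not pair the animals (correlations of deviations 0.03, 0, 0.06 and −0.07, and no animal matched its own number best). Counting error at the mean count reached 8.6% for Mrps6 and 9.67% for Mrpl1, so depth limits these most.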
